A study of Mus musculus with 23 samples.

Results

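The response of the proximal small intestine to a 24 h fast was described from 4 untreated libraries of 23 in the series, chosen by their labels as the fasted and the ad libitum libraries taken at 0 h. The fasted libraries came from 1 Ddit4-/- mouse (KO below) and 1 wild-type mouse (WT below), and the ad libitum libraries likewise from 1 KO and 1 WT mouse. No drug was given to any of the 4, all are labelled male, and age and strain are not stated in the sources used here. The wider study gave doxorubicin, a DNA-damaging chemotherapy, to other ad libitum and prefasted mice of both genotypes, and it also held untreated mice that were refed for 2 or 6 h after the fast. Ddit4 encodes an inhibitor of the growth kinase complex mTORC1, so 1 of the 2 pairs compared here lacks it. Each genotype thus gave 1 pair, fasted minus ad libitum. The questions were which genes moved in both pairs and by how much.

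Fasting lowers insulin and raises glucagon and glucocorticoids in blood, and fatty acids released from fat stores become a main fuel. In liver, the fatty acid sensor PPAR-alpha then turns on fatty acid oxidation and the making of ketone bodies, while SREBP factors, which drive sterol and fat synthesis, are less active. Enterocytes, the absorptive cells that line the villi, carry many of the same enzymes, and they are the cells through which sugars, amino acids and drugs enter the body.

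The 4 libraries held 14.53 to 21.48 reads in genes, in units of 1e+06, and 1 read stood for 0.761 to 1.13 normalized counts, the unit of every level below. Ddit4 had 1.87 normalized counts (2 reads) in the fasted KO library and 0 in the ad libitum KO library, against 289 in the fasted and 180.4 in the ad libitum WT library. Reads of 4 genes on the Y chromosome (Uty, Kdm5d, Eif2s3y, Ddx3y) summed to 5 in the fasted and 0 in the ad libitum KO library, although both are labelled male, against 1645 in the fasted and 1406 in the ad libitum WT library. The 4 libraries therefore differ between pairs in more than the labels state, but within a pair both libraries were alike in these reads. None of the 10 enterocyte markers was at 0 in any of the 4 libraries. Of 2 ileal markers, the bile acid binder Fabp6 was at 0 in all 4 libraries. The other had 16 reads in the fasted KO and 34 in the fasted WT library, against 20 in the ad libitum KO and 25 in the ad libitum WT library. Summed over 6 markers of the duodenum and its Brunner glands the level was 4168 in the fasted KO and 3619 in the fasted WT library, against 9584 in the ad libitum KO library, the highest of 23, and 4964 in the ad libitum WT library. Over 6 villus tip markers it was 100378 in the fasted KO library, the lowest of 23, and 164923 in the fasted WT library, against 162503 in the ad libitum KO and 148305 in the ad libitum WT library. The part of these differences in the results was not tested. The fasted KO library also held transcripts of pancreatic acinar cells, with a summed level of 90775 over 18 markers against 629 in the fasted WT, 791 in the ad libitum KO and 2747 in the ad libitum WT library. Its summed B cell marker level was 997, against 26.6, 49.7 and 505 in the same 3 libraries.

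Of 11939 genes tested, 27 rose in the fasted libraries (0.226%) and 14 fell (0.117%) at an adjusted p under 0.05, with log2 differences of 0.88 to 4.91 and of -3.47 to -1.16. The risen genes included enzymes and transporters of amino acid, prostaglandin and drug metabolism, and the fallen ones an enzyme of sterol synthesis, the glycolytic enzyme Pfkl and genes of epithelial defence. All 41 moved the same way in both pairs, with no overlap between the 2 fasted and the 2 ad libitum libraries. Such separation was also seen in 38.8% of all genes tested, so it did not by itself mark out a gene. On the recovered reads edgeR called 30 genes (0.251%), all among the 41, and DESeq2 called 148 (1.37%), which held all 41. The 11 genes that edgeR did not call, with its adjusted p between 0.060 and 0.111, were Fkbp5, Slc5a12, Slc7a15, Sult1d1, Ube2e3, B4galt6, Npdc1, Ankrd50, Oxct1, Cyp51 and Itpr1. A looser description, at least 2-fold in the same direction in both pairs among the 9631 genes averaging 50 or more over the 4 libraries, held 85 genes higher (0.883%) and 59 lower (0.613%) in the fasted libraries. It included 24 of the 27 risen genes, all but Slc6a19, Ube2e3 and B4galt6, and 13 of the 14 fallen ones, all but Npdc1.

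**Figure D1:**
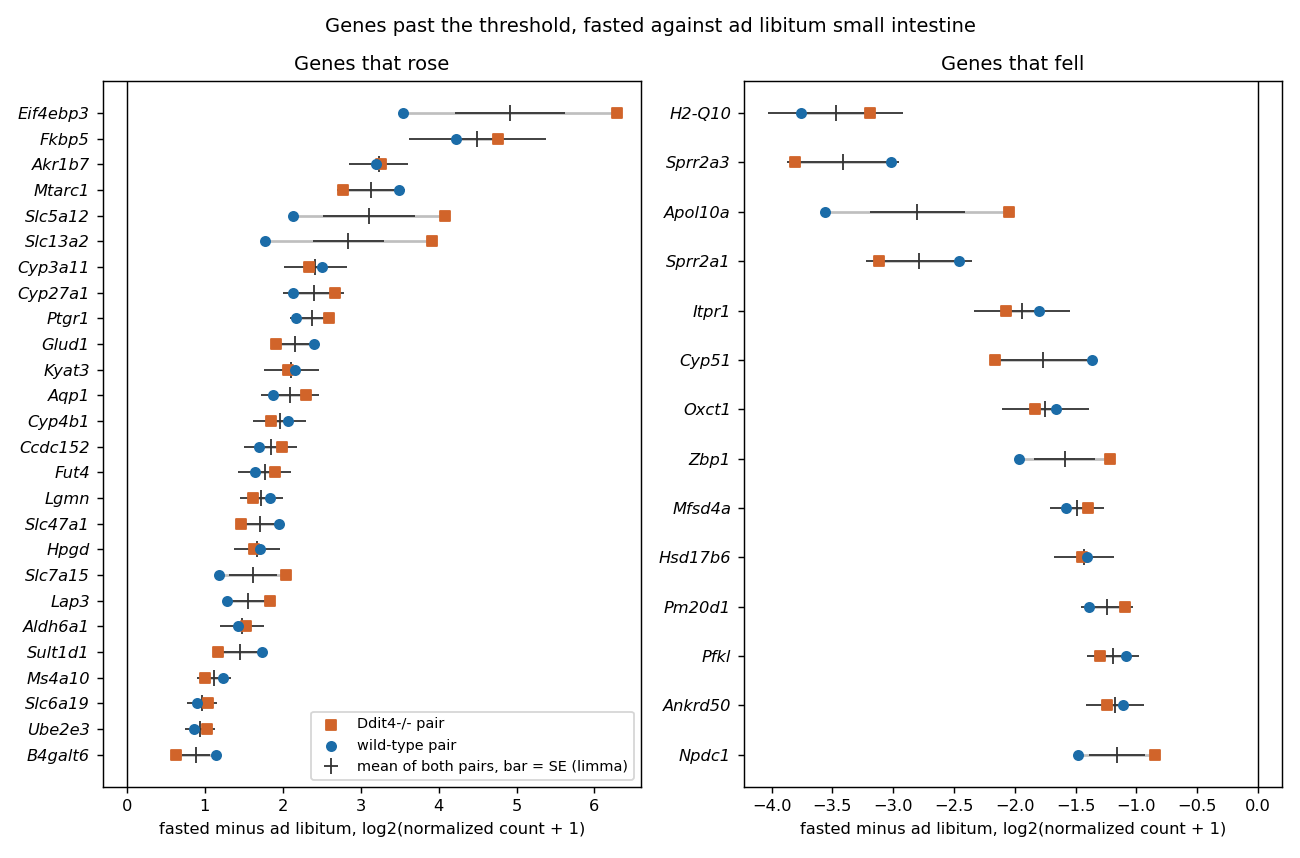
Log2 difference, fasted minus ad libitum, of 26 of the 27 genes that rose (left panel) and the 14 that fell (right panel), with the KO pair as squares, the WT pair as circles and the mean of both with its limma standard error as a tick and bar. Every square and circle lies on the same side of 0, and Akr1b7 (3.26 in the KO pair and 3.20 in the WT pair) shows close values while Slc13a2 (3.91 in the KO pair and 1.77 in the WT pair) shows distant ones.

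The 2 pair differences had the same sign in 53.6% of the genes tested (6405 of 11939), and across these genes, which are not independent replicates, Pearson's r was -0.08 and Spearman's rho 0.06. Over the 4626 genes averaging 500 or more the share was 59.0% and rho was 0.30. Of all genes tested 26.9% were higher and 26.7% lower in both pairs, the background for every count of list members higher or lower in both pairs given below. Without the fasted WT library the count was 3 genes, without the fasted KO library 7, without the ad libitum KO library 5 and without the ad libitum WT library 16. It was 12 without the 2 libraries with acinar transcripts and 0 without the 3 libraries lacking Y-linked reads (limma, 564 genes at an unadjusted p under 0.05), a setting that leaves the WT pair alone. It was 81 without 4 refed, drug-treated WT libraries whose title and drug label conflict, which enter the fit only through the spread. A fit of the 8 untreated libraries alone called 36 genes, and a fit of the 4 compared libraries alone called 44. Each held only 23 of the 41 genes called in the main fit, so the genes called also depended on which libraries gave the spread.

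**Figure D2:**
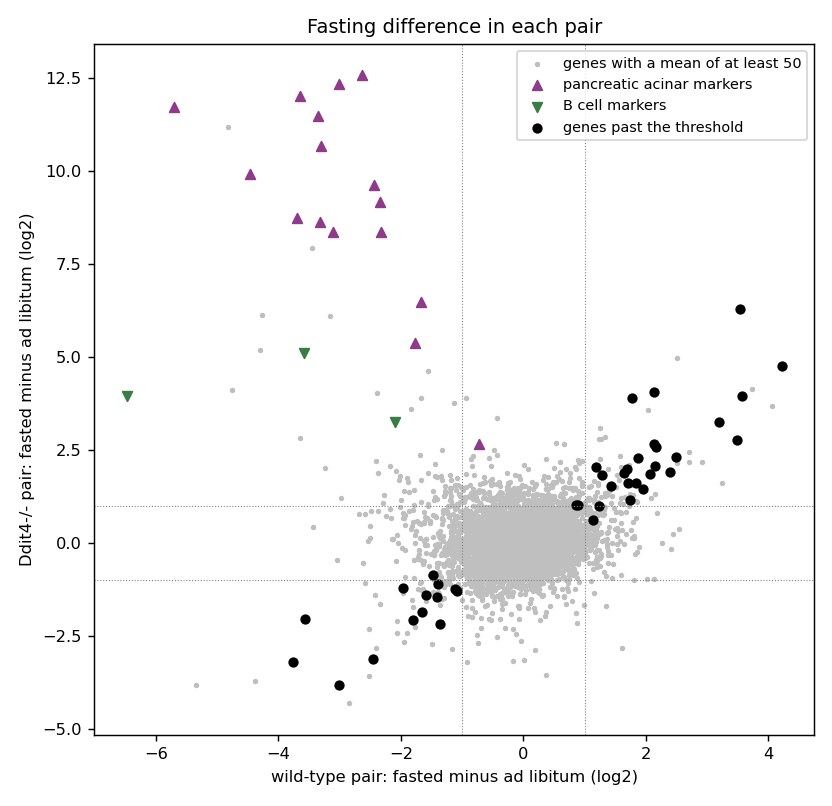
Log2 difference of fasted minus ad libitum in the KO pair (vertical axis) against that in the WT pair (horizontal axis) for the 9631 genes averaging 50 or more over the 4 libraries, where dotted lines mark 2-fold. The 41 genes past the threshold lie along the rising diagonal, a position favoured by their selection on the mean of both pair differences. The pancreatic acinar and B cell markers lie at the upper left, low in the WT pair and high in the KO pair.

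Oxct1 (chr15:4026383-4155344, all positions on mm10), the transferase with which tissues use ketone bodies as fuel, had 1699 and 1221 in the fasted KO and WT libraries, against 6064 and 3859 in the ad libitum KO and WT libraries. Both fasted libraries lay below both ad libitum ones. Oxct1 fell 3.36-fold (log2 -1.75 ± 0.36, adjusted p = 0.048). Its adjusted p was 0.071 with edgeR, and it passed the threshold in 17 of 39 alternative settings. Bdh1, which interconverts the ketone bodies, was lower in both pairs and missed the threshold (log2 -0.47 ± 0.20, adjusted p = 0.60).

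The wider list of PPAR-alpha, ketogenesis and fat oxidation genes had 34 tested members, none of which fell. Of these, 6 were at least 2-fold higher in both pairs without passing the test. Among all 9631 genes held to that 2-fold description 0.883% were higher, those that passed the test included. Pdk4, the kinase that blocks pyruvate oxidation, had 6014 in KO and 6873 in WT fasted intestine, against 1314 in KO and 912 in WT ad libitum intestine. Pdk4 differed by 2.55 ± 0.68 on the log2 scale and missed the threshold (adjusted p = 0.18). Angptl4, the inhibitor of lipoprotein lipase, had 4742 and 3968 in the fasted KO and WT libraries, against 869 and 609.7 in the ad libitum KO and WT libraries. Angptl4 differed by 2.57 ± 1.01 on the log2 scale and missed the threshold (adjusted p = 0.55). The others were the thioesterase Acot1 (2.44 ± 0.70), the fatty acid omega-hydroxylase Cyp4a10 (2.07 ± 0.78), and the acyl-CoA synthetase Acsl1 (1.02 ± 0.26), on the log2 scale with SE. The thiolase Acaa2 had 12264 and 12998 in the fasted KO and WT libraries, against 5069.9 and 5168 in the ad libitum KO and WT libraries. The list had a median of 0.19 beside -0.002 for all genes tested, with 21 members higher and 4 lower in both pairs. Decr1, Ehhadh and Eci1 of the oxidation spiral were among the lower ones, at -0.15, -0.15 and -0.19. The fatty acid uptake protein Cd36, on the fat absorption list, also stood more than 2-fold higher in both pairs, at 3818 and 5629 in the fasted KO and WT libraries, against 957 and 2160.2 in the ad libitum KO and WT libraries. Cd36 differed by 1.69 ± 0.49 on the log2 scale and missed the threshold (adjusted p = 0.24).

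Fkbp5 (chr17:28399094-28517527), a chaperone of the glucocorticoid receptor and one of its most inducible targets, had 2607 in KO and 2200.0 in WT fasted intestine, against 94.8 in KO and 117 in WT ad libitum intestine. It rose 22.5-fold (log2 4.49 ± 0.88, adjusted p = 0.036), and edgeR on the same reads gave an adjusted p of 0.077. Of 20 tested glucocorticoid-responsive genes it was the only one past the threshold, but the list had one of the highest medians of those described, 1.03 (1.16 in the KO pair and 0.68 in the WT pair), and 14 members were higher and 3 lower in both pairs. Zbtb16, a transcription factor induced by glucocorticoids, had 15.9 and 53.3 in the fasted KO and WT libraries, against 0 and 0 in the ad libitum KO and WT libraries. Klf15, a regulator of amino acid breakdown, had 386 in KO and 311 in WT fasted intestine, against 31.6 in KO and 75.3 in WT ad libitum intestine. Klf15 differed by 2.80 ± 0.64 on the log2 scale and missed the threshold (adjusted p = 0.10). Sgk1, the kinase that promotes sodium uptake, had 22612 and 16978 in the fasted KO and WT libraries, against 6395 and 5846 in the ad libitum KO and WT libraries (log2 1.68 ± 0.49, adjusted p = 0.26), and Mt1, a metal-binding metallothionein, had 1909.5 in KO and 7391 in WT fasted intestine, against 616 in KO and 782 in WT ad libitum intestine. Mt1 differed by 2.43 ± 0.95 on the log2 scale and missed the threshold (adjusted p = 0.54). Members of the list that were lower in both pairs were the receptor Nr3c1 itself (-0.29), Klf9 (-0.45) and the sodium channel subunit Scnn1a (-0.58), none of them past the threshold.

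The element AGNACA, 3 bases of any kind, TGTNCT, the type bound by the glucocorticoid receptor, was searched on both strands of the 300-base promoters given by RefSeq for GRCm38.p6. It was found in 3 of 9579 tested genes with a promoter (0.0313%), in none of the 21 risen genes that have one, Fkbp5 included, and in 1 of 15 genes of the glucocorticoid list. That gene was Sgk1, with a match at 1 of its 6 annotated starts. That promoter, chr10:21993640-21993939 on the plus strand, is shown because it joins a gene more than 2-fold higher in both pairs with this rare match. Its capitals mark the element and, near the left end, the E-box CACGTG, which 11.6% of promoters hold. A match describes letters and is not a bound site. The same search covered 4 further elements besides the forkhead one given below. AGGNCA repeated after 1 base, the type bound by PPAR-alpha, was in none of 24 fat oxidation genes (0.355% of all promoters). The sterol element TCACNCCAC was in 1 of 18 cholesterol synthesis genes but in 3 of 24 fat oxidation genes (1.39% of all). The D-box TTACGTAA was in none of 10 Per-phase clock genes (0.188% of all). The E-box was in 3 of 21 risen genes (14.3%), 5 of 15 glucocorticoid-responsive genes and 3 of 10 Per-phase clock genes.
Sgk1: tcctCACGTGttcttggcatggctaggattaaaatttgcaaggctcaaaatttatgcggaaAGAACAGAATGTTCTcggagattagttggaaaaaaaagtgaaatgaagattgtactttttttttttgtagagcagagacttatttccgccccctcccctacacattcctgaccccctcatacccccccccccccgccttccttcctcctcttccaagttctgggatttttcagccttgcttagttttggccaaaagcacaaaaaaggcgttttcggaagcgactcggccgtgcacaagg

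Genes of the circadian clock that share the Per phase had the highest median of the lists grouped by function, 1.15 over 11 tested members (1.43 in the KO pair and 0.82 in the WT pair), although none passed the threshold. Of these, 7 were higher and none was lower in both pairs. The repressor Per2 had 93.7 and 112 in the fasted KO and WT libraries, against 44 and 36.7 in the ad libitum KO and WT libraries (log2 1.33 ± 0.34, adjusted p = 0.16), and its partner Cry2 had 208 in KO and 234 in WT fasted intestine, against 97.1 in KO and 77.3 in WT ad libitum intestine. Cry2 differed by 1.34 ± 0.36 on the log2 scale and missed the threshold (adjusted p = 0.18). The PAR bZIP factors Tef and Hlf, which carry clock output to metabolic genes, differed by 1.40 ± 0.39 and 1.51 ± 0.46. Genes of the opposite, Arntl phase had a median of -0.21, with Arntl itself at -0.38, and their pairs went different ways in 2 of 6 members. Per1 is on both this list and the glucocorticoid-responsive one, so their medians are not fully separate. The hour of the day at which each mouse was killed is not given in the sources used here. A difference in harvest time and an effect of fasting therefore cannot be told apart for these genes, the glucocorticoid-responsive ones or any other gene compared here.

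Eif4ebp3, a repressor of cap-dependent translation related to the mTORC1 substrate 4E-BP1, had the largest rise among the genes past the threshold. It stood at 253 in KO and 196 in WT fasted intestine, against 2.26 in KO and 15.9 in WT ad libitum intestine, a 30.2-fold difference (log2 4.91 ± 0.70, adjusted p = 0.0044). The KO pair differed by 6.29 and the WT pair by 3.54 on the log2 scale. The ad libitum KO library had its lowest level of the 23 libraries. The difference between the pairs did not pass its own test (limma, unadjusted p = 0.056). Its exons overlap those of a readthrough gene on the same strand, from which its reads cannot be separated here. None of the other 16 tested mTORC1 brakes and 4E-BP genes passed the threshold, and the list median was 0.13. Sesn2, a stress-induced inhibitor of mTORC1, stood at 280.3 and 243 in the fasted KO and WT libraries, against 165 and 166 in the ad libitum KO and WT libraries (log2 0.66 ± 0.25, adjusted p = 0.54), and the amino acid sensing subunit Nprl2 at -0.14 on the log2 scale. Neither the FOXO and insulin signalling list (median -0.06, 22 tested) nor the ATF4 list (median 0.27, 16 tested) held a gene past the threshold or 2-fold in both pairs.

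Enzymes that act on drugs, lipid aldehydes and prostaglandins were among the risen genes. Akr1b7 (chr6:34412334-34423142), an aldo-keto reductase that detoxifies lipid aldehydes, had 11947 in KO and 14361 in WT fasted intestine, against 1249.7 in KO and 1561 in WT ad libitum intestine. It rose 9.37-fold (log2 3.23 ± 0.37, adjusted p = 0.0014), and both fasted libraries exceeded every one of the other 21 libraries, whose highest value was 10956. Ptgr1 (chr4:58965439-58987119), a reductase that inactivates leukotriene B4 and prostaglandins, had 11468 and 12009 in the fasted KO and WT libraries, against 1908 and 2677 in the ad libitum KO and WT libraries (log2 2.38 ± 0.28, adjusted p = 0.0014), again above all others. Akr1b7 and Ptgr1 each passed the threshold in 38 of 39 alternative settings, more than any other gene, the exception for both being the setting that leaves the WT pair alone. Akr1b7 and Cyp3a11 belong to families of similar genes, among which reads could be split.

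Hpgd, the dehydrogenase that starts prostaglandin breakdown, had 17628 in KO and 19813 in WT fasted intestine, against 5712 in KO and 6061 in WT ad libitum intestine and rose 3.18-fold (log2 1.67 ± 0.29, adjusted p = 0.016). Cyp3a11 (chr5:145854426-145879964), the main intestinal drug oxidase of the mouse, had 120597 and 176673 in the fasted KO and WT libraries, against 23965 and 31180.2 in the ad libitum KO and WT libraries and rose 5.34-fold (log2 2.42 ± 0.40, adjusted p = 0.012). Further risen genes with such roles were the monooxygenase Cyp4b1 (1.96), the sulfotransferase Sult1d1 (1.45), the reductase Mtarc1 of the mitochondrial outer membrane (3.13) and the drug and cation exporter Slc47a1 (1.71), all log2 differences with both pairs in the same direction. On the xenobiotic list, 4 of 34 tested members rose (0.226% of all genes tested) and none fell (0.117% of all). The list had a median of 0.11, and 17 members were higher and 11 lower in both pairs. The lower ones included Cyp1a1, the target of the aryl hydrocarbon receptor, at 34.7 in KO and 161 in WT fasted intestine, against 704 in KO and 1167 in WT ad libitum intestine (log2 -3.58 ± 1.06, adjusted p = 0.27), and the carboxylesterase Ces2b at -2.16. Genes of NRF2 and glutathione defence were lower in both pairs in 11 of 13 tested members and higher in none, with a median of -0.33 and none past the threshold. Among them the pentose phosphate enzymes G6pdx and Pgd stood at -0.85 ± 0.22 and -0.85 ± 0.23, and the selenoprotein peroxidase Gpx2 at -2.30 ± 1.34.

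The forkhead element GTAAACA, searched on both strands, occurred in the promoters of 3 of the 21 risen genes that have one in the RefSeq table (14.3%), namely Akr1b7, Cyp3a11 and Sult1d1, and in none of 11 fallen genes. It was found in 3.35% of all 9579 tested genes with a promoter, and in 7 of 64 genes 2-fold higher in both pairs (10.9%). Among genes 2-fold lower in both pairs it was in 1 of 44 (2.27%), Elovl6. These counts are small and describe letters only; the 3 promoters are shown because all belong to enzymes that act on foreign or lipid compounds. They lie at chr6:34412112-34412411 on the plus strand for Akr1b7, at chr5:145879805-145880104 on the minus strand for Cyp3a11 and at chr5:87568957-87569256 on the minus strand for Sult1d1, each with 250 bases before and 50 bases after the start. Capitals mark the element, which reads TGTTTAC where it lies on the other strand.
Akr1b7: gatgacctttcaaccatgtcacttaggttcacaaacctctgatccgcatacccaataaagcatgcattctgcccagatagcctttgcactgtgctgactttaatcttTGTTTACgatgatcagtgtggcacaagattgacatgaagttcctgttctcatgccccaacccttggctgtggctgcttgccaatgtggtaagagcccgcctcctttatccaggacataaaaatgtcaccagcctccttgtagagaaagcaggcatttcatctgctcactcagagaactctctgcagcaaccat
Cyp3a11: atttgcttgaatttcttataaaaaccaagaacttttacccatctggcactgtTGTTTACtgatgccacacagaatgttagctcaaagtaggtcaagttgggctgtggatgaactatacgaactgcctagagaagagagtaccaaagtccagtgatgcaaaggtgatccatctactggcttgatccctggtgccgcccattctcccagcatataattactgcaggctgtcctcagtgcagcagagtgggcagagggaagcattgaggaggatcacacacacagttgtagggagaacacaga
Sult1d1: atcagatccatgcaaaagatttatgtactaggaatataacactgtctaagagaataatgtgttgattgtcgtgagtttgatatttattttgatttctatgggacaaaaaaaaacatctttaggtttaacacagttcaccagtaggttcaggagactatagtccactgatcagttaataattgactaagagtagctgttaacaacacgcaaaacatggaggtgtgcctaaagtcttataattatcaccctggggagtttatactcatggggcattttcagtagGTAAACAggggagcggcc

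Several risen genes handle amino acids. Glud1 (chr14:34310727-34345265), the mitochondrial enzyme that releases ammonia from glutamate, had 8074 in KO and 13637 in WT fasted intestine, against 2143 in KO and 2579.6 in WT ad libitum intestine and rose 4.46-fold (log2 2.16 ± 0.30, adjusted p = 0.0035). Kyat3, an aminotransferase of kynurenine and other amino acids, had 371 and 415 in the fasted KO and WT libraries, against 88.1 and 92.2 in the ad libitum KO and WT libraries and rose 4.32-fold (log2 2.11 ± 0.35, adjusted p = 0.012). Aldh6a1, of valine and thymine breakdown, rose by 1.48 ± 0.28 and the leucine aminopeptidase Lap3 by 1.56 ± 0.26 on the log2 scale. For Kyat3 and Aldh6a1 both fasted libraries again lay above the other 21. Aldh6a1 shares 1078 exon bases with Bbof1 on the opposite strand, and the library kit does not mark strand. Bbof1 itself was listed at 0 and 0 in the fasted KO and WT libraries, against 2.26 and 11.9 in the ad libitum KO and WT libraries.

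Of the amino acid and peptide transporters, 1 of 16 tested members rose (0.226% of all genes tested) and none fell (0.117% of all). This was Slc6a19, the sodium-driven carrier of neutral amino acids in the brush border, with 18354 in KO and 19651 in WT fasted intestine, against 8939.7 in KO and 10532 in WT ad libitum intestine. Slc6a19 rose by 0.97 ± 0.19 on the log2 scale (adjusted p = 0.04). The list had a median of 0.38 (0.84 in the KO pair and 0.09 in the WT pair), with 9 members higher in both pairs. The peptide carrier Slc15a1 had 16635 and 15535 in the fasted KO and WT libraries, against 8127 and 9400.4 in the ad libitum KO and WT libraries and missed the threshold (log2 0.88 ± 0.30, adjusted p = 0.42). Slc7a15, an amino acid transporter of mouse intestine that was not on the list, had a log2 difference of 1.61 ± 0.31 (adjusted p = 0.034).

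Carriers of organic acids and water were also among the risen genes. Slc5a12 (chr2:110597298-110647779), a sodium-driven carrier of lactate and other monocarboxylates, had 836 in KO and 1592 in WT fasted intestine, against 48.5 in KO and 363 in WT ad libitum intestine. Slc5a12 rose by 3.10 ± 0.59 on the log2 scale (adjusted p = 0.034), and edgeR gave an adjusted p of 0.111. Slc13a2 (chr11:78397087-78422217), the sodium-driven carrier of citrate and succinate, had 3728 and 3659.6 in the fasted KO and WT libraries, against 247 and 1073 in the ad libitum KO and WT libraries. Slc13a2 rose by 2.84 ± 0.46 on the log2 scale (adjusted p = 0.0099). In both genes the ad libitum KO library was the lowest, so the KO pair differed more (4.08 and 3.91) than the WT pair (2.13 and 1.77), and the difference between pairs passed no adjusted test. The proton-linked carrier Slc16a1, which takes up lactate and ketone bodies, was lower in both pairs (log2 -0.49 ± 0.18, adjusted p = 0.49). Of 8 tested organic acid transporters 2 rose (0.226% of all genes tested) and none fell (0.117% of all). In both pairs 3 were higher and 3 lower, and the median was -0.04. The water channel Aqp1 had 3332 in KO and 4547 in WT fasted intestine, against 675 in KO and 1239 in WT ad libitum intestine. Aqp1 rose by 2.09 ± 0.37 on the log2 scale (adjusted p = 0.02).

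Pfkl, the liver-type phosphofructokinase of glycolysis, had 550.3 in KO and 515 in WT fasted intestine, against 1352 in KO and 1094 in WT ad libitum intestine and fell 2.28-fold (log2 -1.19 ± 0.22, adjusted p = 0.021). Pck1, which makes phosphoenolpyruvate for gluconeogenesis, had 32972 and 22108 in the fasted KO and WT libraries, against 2555 and 1323 in the ad libitum KO and WT libraries, a difference of 3.88 ± 1.03 that did not pass the threshold (adjusted p = 0.18). Its 2 fasted libraries were both more than 8 times above either ad libitum library. Other members of the list of gluconeogenesis and sugar handling, which holds Pck1 but not Pfkl, differed less: G6pc, the glucose-6-phosphatase, had 0.99 ± 0.67, its transport partner Slc37a4 0.70 ± 0.21, and pyruvate carboxylase Pcx -0.86 ± 0.22. None of the 22 tested members passed, and 12 were higher and 4 lower in both pairs.

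Genes of cholesterol synthesis were lower in both pairs in 22 of 25 tested members, higher in 2, and had a median of -0.51 (-0.33 in the KO pair and -0.44 in the WT pair). Cyp51 (chr5:4081145-4104746), the lanosterol demethylase, was the only member past the threshold, with 370.3 in KO and 508 in WT fasted intestine, against 1666 in KO and 1309.6 in WT ad libitum intestine. Cyp51 fell, with a log2 difference of -1.77 ± 0.36 (adjusted p = 0.043). Its adjusted p was 0.069 with edgeR, it passed the threshold in 18 of 39 alternative settings, and it shares 166 exon bases with Akap9 on the opposite strand. The isomerase Idi1 had 78.7 and 79.1 in the fasted KO and WT libraries, against 178 and 173 in the ad libitum KO and WT libraries, more than 2-fold lower in both pairs but not past the threshold (log2 -1.15 ± 0.43, adjusted p = 0.51). Insig1, which restrains SREBP processing and is itself an SREBP target, stood at -0.87 ± 0.47 on the log2 scale. The fatty acid elongase Elovl6 had 1428 in KO and 1113 in WT fasted intestine, against 4002 in KO and 2787 in WT ad libitum intestine (log2 -1.41 ± 0.40, adjusted p = 0.22), and of 17 tested members of its fatty acid synthesis list 10 were lower and 2 higher in both pairs (median -0.37), none past the threshold. The fatty acid synthase Fasn had opposite differences in the pairs, at 0.55 in the KO pair and -1.53 in the WT pair.

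Cyp27a1, the mitochondrial sterol 27-hydroxylase, had 3621 in KO and 4834 in WT fasted intestine, against 568 in KO and 1105 in WT ad libitum intestine and rose 5.28-fold (log2 2.40 ± 0.39, adjusted p = 0.01). The exporter Abca1 had 737 and 550.2 in the fasted KO and WT libraries, against 22.6 and 96.2 in the ad libitum KO and WT libraries (log2 3.74 ± 0.87, adjusted p = 0.10), and Abcg5, which returns sterols to the lumen, had 12658 in KO and 15040.2 in WT fasted intestine, against 5542 in KO and 6790.0 in WT ad libitum intestine. Abcg5 differed by 1.17 ± 0.28 on the log2 scale and missed the threshold (adjusted p = 0.12). The lipoprotein receptor Scarb1 stood at -1.92, lower in both pairs. Of 19 members of the fat absorption and lipoprotein list averaging 50 or more, 3 were 2-fold higher in both pairs (0.883% of all such genes). Scarb1 was the 1 member 2-fold lower in both pairs (0.613% of all), and none of these passed the threshold.

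Among the largest falls were genes of epithelial defence. H2-Q10, a secreted class I molecule, had 38.4 in KO and 39.6 in WT fasted intestine, against 359 in KO and 547 in WT ad libitum intestine and fell 11.1-fold (log2 -3.47 ± 0.56, adjusted p = 0.0099). The small proline-rich protein genes Sprr2a3 and Sprr2a1 encode cross-linked proteins of stressed epithelia. Sprr2a3 had 600.0 and 309 in the fasted KO and WT libraries, against 8426 and 2505 in the ad libitum KO and WT libraries (log2 -3.41 ± 0.46, adjusted p = 0.0035), and Sprr2a1 had 297 and 241 in the fasted KO and WT libraries, against 2586 and 1332 in the ad libitum KO and WT libraries. Sprr2a1 fell, with a log2 difference of -2.79 ± 0.43 (adjusted p = 0.0086). Their neighbour Sprr2a2 was lower by -2.01 ± 0.47 without passing; Sprr2a1 and Sprr2a2 share exon bases, so reads may have been split between them. The nucleic acid sensor Zbp1 had 558 in KO and 207 in WT fasted intestine, against 1297 in KO and 811 in WT ad libitum intestine (log2 -1.59 ± 0.25, adjusted p = 0.0099), and Apol10a, of the apolipoprotein L family, had 866 and 265 in the fasted KO and WT libraries, against 3576 and 3133 in the ad libitum KO and WT libraries. Apol10a fell, with a log2 difference of -2.80 ± 0.39 (adjusted p = 0.0035).

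Of 16 tested mucosal defence and Sprr genes 2 fell (0.117% of all genes tested) and none rose (0.226% of all). Their median was -0.78 (-0.06 in the KO pair and -1.01 in the WT pair). The lectin Reg3b was higher in both pairs at 0.94, and the oxidase Duox2 lower at 20.6 and 0 in the fasted KO and WT libraries, against 280.0 and 19.8 in the ad libitum KO and WT libraries, neither past the threshold. Of 22 tested interferon-stimulated genes, 1 fell (Zbp1), beside 0.117% of all genes tested. In both pairs 13 were lower and none was higher, with a median of -0.28. Ifit2 and Ifit1bl1, induced by interferon, stood at -1.83 ± 0.42 and -1.35 ± 0.47. Paneth cell markers were lower in both pairs in 8 of 12 tested members, with a median of -0.89 (-0.28 in the KO pair and -1.69 in the WT pair) and none past the threshold; whether fewer cells or less RNA per cell lay behind this or any other difference cannot be told apart in whole tissue.

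The remaining fallen genes had varied roles. Itpr1, a calcium release channel, had 694 in KO and 731 in WT fasted intestine, against 2928 in KO and 2558 in WT ad libitum intestine. Itpr1 fell, with a log2 difference of -1.94 ± 0.39 (adjusted p = 0.046). The others were Mfsd4a, of the major facilitator family (-1.49), Hsd17b6, which oxidizes retinol and steroids (-1.43), Pm20d1, which makes and cleaves N-acyl amino acids (-1.24), the ankyrin repeat gene Ankrd50 (-1.18) and Npdc1, named for neural proliferation (-1.16). Both fasted libraries lay below the other 21 for Pm20d1 and Ankrd50. Npdc1 shares 612 exon bases with Entpd2 and Mfsd4a shares 84 with Elk4, so part of their reads could belong to these neighbours.

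The remaining risen genes were the fucosyltransferase Fut4 (1.77), the lysosomal protease Lgmn (1.73), the lactosylceramide synthase B4galt6 (0.88), the ubiquitin conjugating enzyme Ube2e3 (0.94), the membrane protein Ms4a10 (1.12) and Ccdc152 (1.84). Ccdc152 shares 439 exon bases with Selenop on the opposite strand. The library kit does not mark strand, and Selenop, an abundant selenium carrier, stood at 177912 and 247368 in the fasted KO and WT libraries, against 152668 and 140711 in the ad libitum KO and WT libraries. Selenop differed by 0.52 ± 0.39 on the log2 scale and missed the threshold (adjusted p = 0.88).

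Further gene groups differed by small amounts, and their counts are to be read beside the 26.9% higher and 26.7% lower in both pairs of all genes tested. Of 18 tested endoplasmic reticulum chaperone genes 13 were higher and none was lower in both pairs, with a median of 0.29; Hspa5, the main chaperone of that compartment, stood at 9579 and 8865 in the fasted KO and WT libraries, against 5896 and 6042 in the ad libitum KO and WT libraries. Hspa5 differed by 0.63 ± 0.21 on the log2 scale and missed the threshold (adjusted p = 0.39). Of 38 tested ribosomal protein genes 26 were higher and 1 was lower in both pairs (median 0.33), and of 31 tested nuclear genes of oxidative phosphorylation 17 were lower and 1 was higher (median -0.24). Heat shock chaperones were lower in 7 and higher in 2 of 14 tested members (median -0.27) and brush border hydrolases higher in 10 and lower in 3 of 19 (median 0.11). Autophagy and lysosome genes were at the background, with 8 higher and 7 lower of 28 (median 0.02). None of these genes passed the threshold, beside the 0.343% of all genes tested that did. Ferroportin Slc40a1, the iron exporter of the duodenum, had 725 in KO and 222 in WT fasted intestine, against 5065 in KO and 1186 in WT ad libitum intestine. Slc40a1 differed by -2.61 ± 0.80 on the log2 scale and missed the threshold (adjusted p = 0.30). It is 1 of the 6 duodenum markers, and the sum of the other 5 was 3443 and 3397 in the fasted KO and WT libraries, against 4519 and 3778 in the ad libitum KO and WT libraries.

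**Figure D3:**
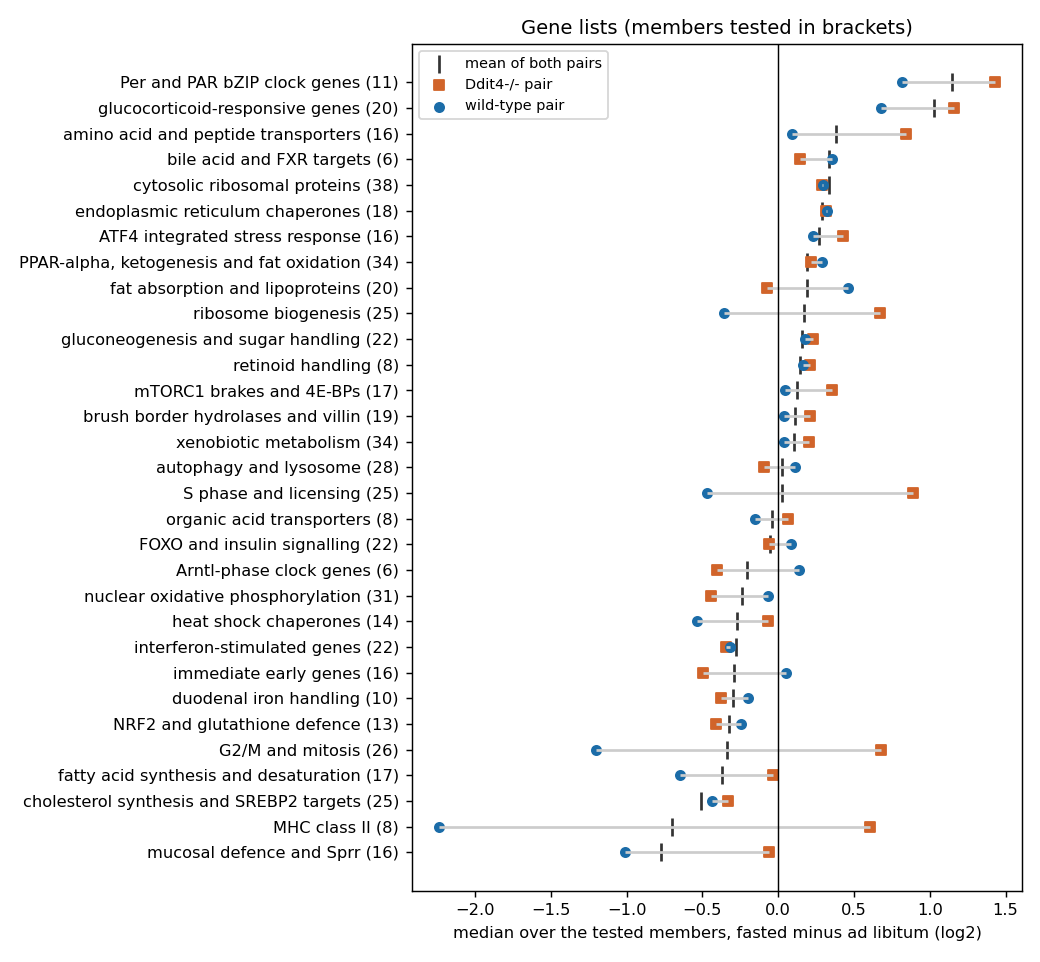
Median log2 difference, fasted minus ad libitum, over the tested members of each gene list, with squares for the KO pair, circles for the WT pair and ticks for the median of the fitted differences. Among the lists grouped by function the Per-phase clock and glucocorticoid-responsive ones lie highest, near 1, cholesterol synthesis lies low in both pairs, and the G2/M, S phase and MHC class II lists have their pairs on opposite sides of 0.

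Cell cycle and antigen presentation genes had no shared direction. G2/M genes had a median of 0.68 in the KO pair and -1.20 in the WT pair, S phase genes 0.89 in the KO pair and -0.47 in the WT pair and MHC class II genes 0.61 in the KO pair and -2.23 in the WT pair, with no member of these lists past the threshold. The class II chain H2-Aa had 2780.4 and 229 in the fasted KO and WT libraries, against 1637 and 875 in the ad libitum KO and WT libraries, and the mitotic kinase Plk1 had 165 in KO and 67 in WT fasted intestine, against 115 in KO and 216 in WT ad libitum intestine. At least 2-fold opposite differences were seen in 88 genes lower in the WT pair and higher in the KO pair (0.914%) and in 4 genes the other way (0.0415%). Of the 88, 18 were pancreatic acinar, B cell or plasma cell markers. These lists held 16 acinar, 3 B cell and 1 plasma cell marker averaging 50 or more over the 4 libraries. The test of a difference between the KO pair and the WT pair found 0 genes with limma (459 at an unadjusted p under 0.05) and 0 with edgeR, and 6 with DESeq2: Cd79a, Lyz2, Mpeg1, Pou2af1, Pou2f2 and Vcam1. On simulated data this test recovered 27% of 4-fold and 95% of 16-fold differences.

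Other tissue markers differed between the libraries too, and their part in the results was not tested. Summed over 8 smooth muscle markers, the level was 524 in the fasted KO and 707 in the fasted WT library, against 2821 in the ad libitum KO library, the highest of 23, and 740 in the ad libitum WT library. Over 10 myeloid markers it was 1593 in the fasted KO library and 383 in the fasted WT library, the lowest of 23. It was 580.2 and 1344 in the ad libitum KO and WT libraries. Over 13 goblet cell markers it was 173440 in the fasted KO library and 98360 in the fasted WT library, again the lowest of 23. It was 140138 and 135140 in the ad libitum KO and WT libraries. Over the 10 enterocyte markers it was 1016980 and 1105000 in the fasted KO and WT libraries, against 1040950 and 903262 in the ad libitum KO and WT libraries. The ad libitum WT library was the lowest of 23 for these markers.

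Levels in untreated mice refed after the same fast are set beside these. Their libraries, again 1 for each genotype and time, are separate from the 4 above, and no test was made. The WT library refed for 6 h, like the fasted KO library, held pancreatic acinar transcripts. Y-linked reads summed to 1190 in the KO library refed for 6 h and 0 in that refed for 2 h. They were 5 in the fasted and 0 in the ad libitum KO library. The part of these differences in the levels below was not tested. Of the 27 risen genes, 16 were lower in both libraries refed for 2 h than in both fasted ones (20.3% of all genes tested), and 19 were lower in both refed for 6 h (25% of all). Of the 14 fallen genes, 7 were higher in both refed libraries at 2 h (23.1% of all) and 10 at 6 h (23.2% of all). These genes were chosen by their levels in the same fasted libraries, so the counts are descriptions only. Fkbp5 was still high at 2 h, with 3107 in KO and 2050.1 in WT, and far lower at 6 h, with 275 in KO and 149 in WT. Cyp3a11 stood at 102985 in KO and 124262 in WT at 2 h and 86551 in KO and 153583 in WT at 6 h, above both ad libitum libraries at each time. Oxct1 had 1708 in KO and 1399 in WT at 2 h and 2116 in KO and 1871 in WT at 6 h, below both ad libitum libraries. Eif4ebp3 was lower at each time, with 122 in KO and 104 in WT at 2 h and 49.2 in KO and 48.5 in WT at 6 h.

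**Figure D4:**
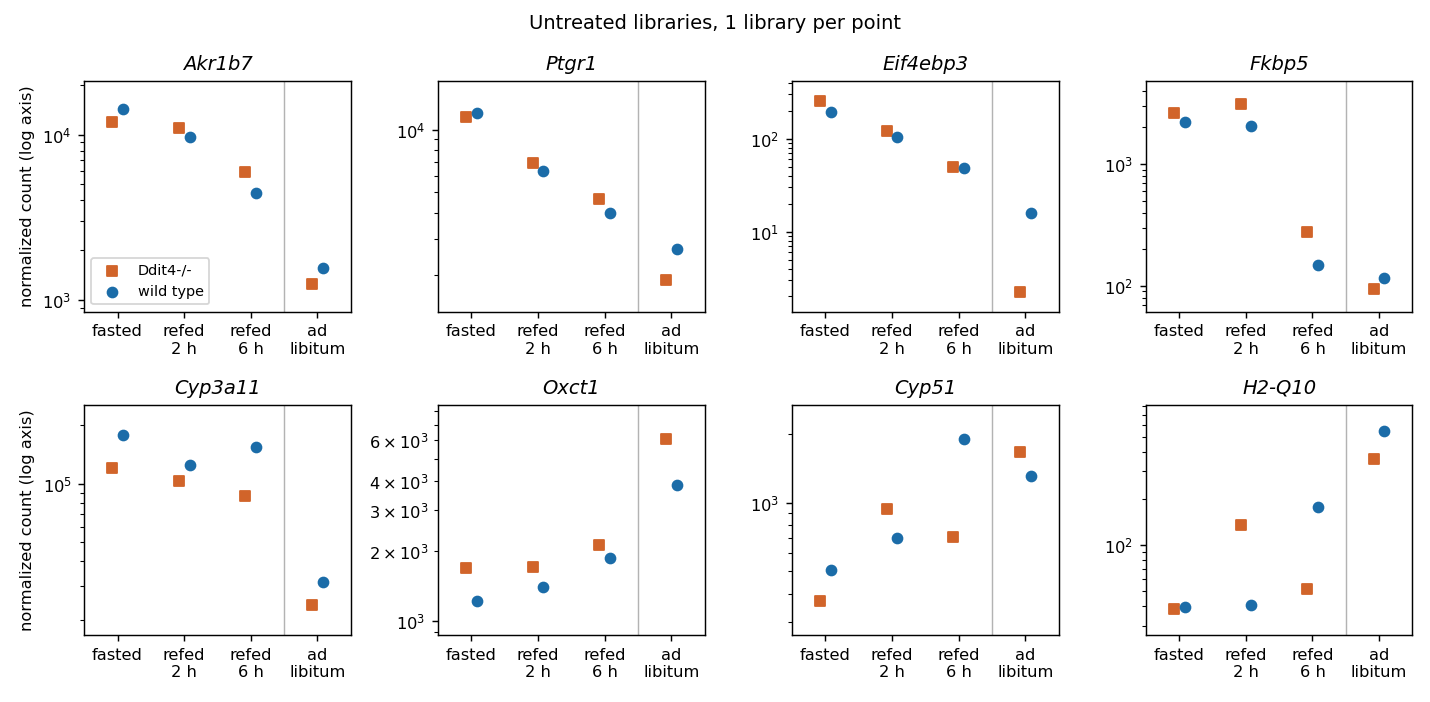
Normalized counts on a log axis in each untreated library, with KO as squares and WT as circles, for 5 genes that rose and 3 that fell, in the order fasted, refed for 2 h, refed for 6 h and, right of the line, ad libitum. Fkbp5 lies high when fasted and refed for 2 h and low from 6 h, Akr1b7 and Eif4ebp3 step down at each time, and Oxct1 lies low in all 6 fasted and refed libraries.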

How the data were processed

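RNA was isolated from whole proximal small intestine and poly-A selected, and non-directional libraries were sequenced as read pairs, per the labels' protocols. Tools listed in the submitters' processing notes are DESeq2, STAR and Trim Galore, with the build mm10; versions, annotation and counting are not given in the sources used here. The deposited table holds signal values of 16259 genes, read counts that the authors divided by 1 factor per library. Dividing by the value of 1 read gave whole reads for 100% of values within 0.01 of a read, and 49 genes were at 0 everywhere. The number of value columns not used is 0.

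Values were tested as log2(value + 1) for 11939 genes with a mean of at least 10 over the 23 libraries, with limma 3.58.1 (eBayes with a trend, R 4.3.3) in a fit of 12 conditions plus genotype (10 residual degrees of freedom; 8 for the difference between pairs). Tests were two-sided, and p-values were adjusted over all 11939 genes by the Benjamini-Hochberg method. The spread comes from WT and KO libraries of all conditions, so a p-value measures nothing but the spread among these libraries. With at most 1 library for each genotype and condition, that spread is how the KO minus WT difference varied over the conditions. Variation between mice of the same genotype and condition was not measured. edgeR 4.0.16 and DESeq2 1.42.0 were run on the recovered reads; DESeq2 gave an adjusted p for 10781 genes. Log2 values carry SEs; folds are 2 to the log2 difference and understate low genes. Tested on simulated data with 11939 genes, limma recovered 30% of 2-fold and 92% of 4-fold changes with 8 false calls.

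The comparison, gene lists and rule for naming genes were chosen with earlier results of these data known, and the promoter motifs after the values were seen. Named were Ddit4 and library checks, every gene past the threshold with 1 direction in both pairs, list members at least 2-fold in both pairs or among the 3 smallest p of their list, and the 10 largest 2-fold genes of each direction; other list members were named after their values were seen. A few results, among them 1 changed gene, are not reported here. Gene positions and exon overlaps come from GENCODE M21, which matched 16046 of 16259 symbols, and promoters from RefSeq. Alternatives covered the pseudocount, filter, scaling, weights, tool, genotype term, libraries included and each library left out.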

Additional observations from a re-analysis of the deposited data

Results flagged for a closer look

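The 8 list genes given here had the KO pair and the WT pair on opposite sides of 0. None of them passed the test of a difference between the pairs. Opposite signs were common, as only 53.6% of all genes tested (6405 of 11939) moved the same way in both pairs. Other genes given above, among them Fasn, H2-Aa and Plk1, also had opposite signs, so 8 is not a full count. The aminopeptidase Anpep of the brush border differed by 1.486 in the KO pair and -0.05 in the WT pair (fasted minus ad libitum, log2), the type I TGF-beta receptor Tgfbr1 by -0.06821 in the KO pair and 1.01 in the WT pair, and the stress factor Ddit3 by -1.13 in the KO pair and 0.19 in the WT pair. The AP-1 subunit Fosl2 differed by -1.255 in the KO pair and 0.05 in the WT pair. The mitotic genes Cdca8 and Ube2c differed by 0.1047 and 0.1977 in the KO pair and by -1.58 and -1.31 in the WT pair. The class II genes H2-DMb1 and H2-Eb1 differed by 0.1338 and 0.4524 in the KO pair and by -2.50 and -2.51 in the WT pair. The fasted KO library also held the highest summed B cell marker level of the 23 libraries (997), and its part in these values was not tested.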

How the results depend on the processing

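All 41 changed genes kept their direction in the 39 alternative settings. This was largely fixed in advance, as all 41 moved the same way in both pairs. Many settings also only dropped a library outside the comparison, which leaves the difference unchanged. The count depended on the libraries. Against 41 in the main fit, it was 25 with no filter on low values, 62 with array weights, 148 with DESeq2, 16 without the genotype term that pairs libraries within genotype (no pairing), 0 without the libraries lacking Y-linked reads, 12 without those with acinar transcripts and 81 without the 4 libraries whose title and drug label conflict. Leaving out 1 library gave 3 to 48. The count for the difference between pairs was 6 with DESeq2 and 0 to 2 with 1 library left out. The 2-fold counts were 270 higher and 216 lower at 1.5-fold, 18 and 12 at 4-fold, 175 and 111 with a mean of at least 10, and 49 and 36 with a mean of at least 200. Without the libraries lacking Y-linked reads only the WT pair is left. Anpep (-0.054), Ddit3 (0.19) and Fosl2 (0.045) then simply took the WT pair's difference, so their reversal was fixed by the design. Ddit3 also reversed to 0.059 without the libraries with acinar transcripts, and Ube2c ranged from -1.37 without the fasted KO to 0.26 without the fasted WT library. No further paired analysis was possible because the labels give no replicate number and the number of each library within its group coincides with its genotype, so the genotype term is the only pairing. The cause of the remaining shifts was not tested. In the simulation at this number of libraries most 2-fold changes were missed (30% recovered). The simulated libraries had no differences in genotype or tissue content, so recovery in the real ones is not known.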
